A study of Rattus norvegicus with 35 samples.

Results

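The 8 genes described here encode the 2 cytoplasmic actins (Actb and Actg1), the 2 smooth muscle actins (Acta2 and Actg2), the actin-binding proteins transgelin (Tagln) and calponin (Cnn1), and the tropomyosins Tpm1 and Tpm2. They were chosen by symbol, and all 8 were present among the 16212 symbols matched in the count table. The libraries came from rat converted hypoblast stem cells, derived from rat embryonic stem cells with LIF, PDGF, EGF and serum and collected on day 12 of differentiation. The hypoblast is the embryonic layer that forms the extraembryonic endoderm of the yolk sac. There were 34 single-cell libraries, prepared on the C1 microfluidic system, and 1 bulk library of the same population. The labels name no separate cultures, so all cells together count as a single sample, as does the bulk library, and no difference between them could be tested. SDs describe the spread between cells.

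Actin filaments form the cortex and the stress fibres of animal cells. The cytoplasmic actins are made in nearly all cell types. The smooth muscle actins, transgelin and calponin mark contractile cells and are also made by stressed or spread cells in culture. Tropomyosins wind along the filament and govern which myosins and severing proteins reach it. Many of these genes are controlled by serum response factor (SRF), which binds a sequence called the CArG box and is activated by its cofactors when the pool of free actin falls.

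Promoter sequences were available for 6 of the 8 genes, from RefSeq (build GRCr8), each before 1 annotated start. For Actg1, Acta2 and Cnn1 that start is the outer end of the gene. For Tpm1, Actg2 and Tpm2 it lies inside the gene, and these stretches are not described. The CArG box was searched in the 250 bases before the start, on both strands, exactly and with at most 1 mismatch. Of 33469 promoters of the same length, 1.497% held an exact match and 18.75% a match with at most 1 mismatch. Actg1 held 1 exact match, from 90 to 81 bases before the start. Acta2 held 2 matches with 1 mismatch each, and Cnn1 held none. The promoters of Actg1 and Acta2 are shown because they belong to a cytoplasmic and a smooth muscle actin whose levels are described below. They are written 5′ to 3′ on the minus strand, with the matches in capitals. Their positions are chr10:106120952-106121201 for Actg1 and chr1:241172504-241172753 for Acta2.
Actg1: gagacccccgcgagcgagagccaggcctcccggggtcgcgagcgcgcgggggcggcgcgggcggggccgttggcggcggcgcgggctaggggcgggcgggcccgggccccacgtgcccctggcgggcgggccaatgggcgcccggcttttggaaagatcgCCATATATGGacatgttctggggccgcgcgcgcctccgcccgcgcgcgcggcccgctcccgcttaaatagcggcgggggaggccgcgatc
Acta2: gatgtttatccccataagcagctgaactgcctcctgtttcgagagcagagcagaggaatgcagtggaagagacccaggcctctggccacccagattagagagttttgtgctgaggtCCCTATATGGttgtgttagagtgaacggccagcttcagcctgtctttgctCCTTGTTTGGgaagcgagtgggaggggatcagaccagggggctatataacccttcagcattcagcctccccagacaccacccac
The matches are a description of these letters, and no binding was measured.

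Levels are given in CPM, reads divided by the library's total and scaled up alike in all libraries. A library held 6288 to 503044 reads among the cells, with a median of 266046, and 47121 reads in bulk. A single read was therefore worth 1.99 to 159 CPM in a cell and 21.2 CPM in bulk. Detection in a cell means a level of 5 CPM or more. The cells labelled C88 and C94 were the shallowest, with 12750 and 6288 reads. Of 10 hypoblast markers, 9 were detected in at least 17 cells. Of all matched symbols 17.1% were, as were 54.1% of the symbols and unmatched records averaging 20 CPM or more. Among the 9 markers were Lama1 in 30 cells (3163 ± 3837 CPM), Sparc in 33 (2907 ± 2210 CPM) and Col4a1 in 32 (1591 ± 1237 CPM). The cells C14, C17, C30 and C46 stood apart: they were the cells with at least 5 CPM of Col1a2, a fibrillar collagen gene. In C14 only Gata6 (4 reads) and Sparc (164 reads) of the 10 hypoblast markers had a read. Mean levels with and without C14 or all 4 cells are given for the genes that rest on them. C17 and C46 are among the gene-rich cells defined below, and no correlation was computed without them. Transcript lengths were not used here, so the CPM of different genes does not rank their abundance.

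**Figure D1:**
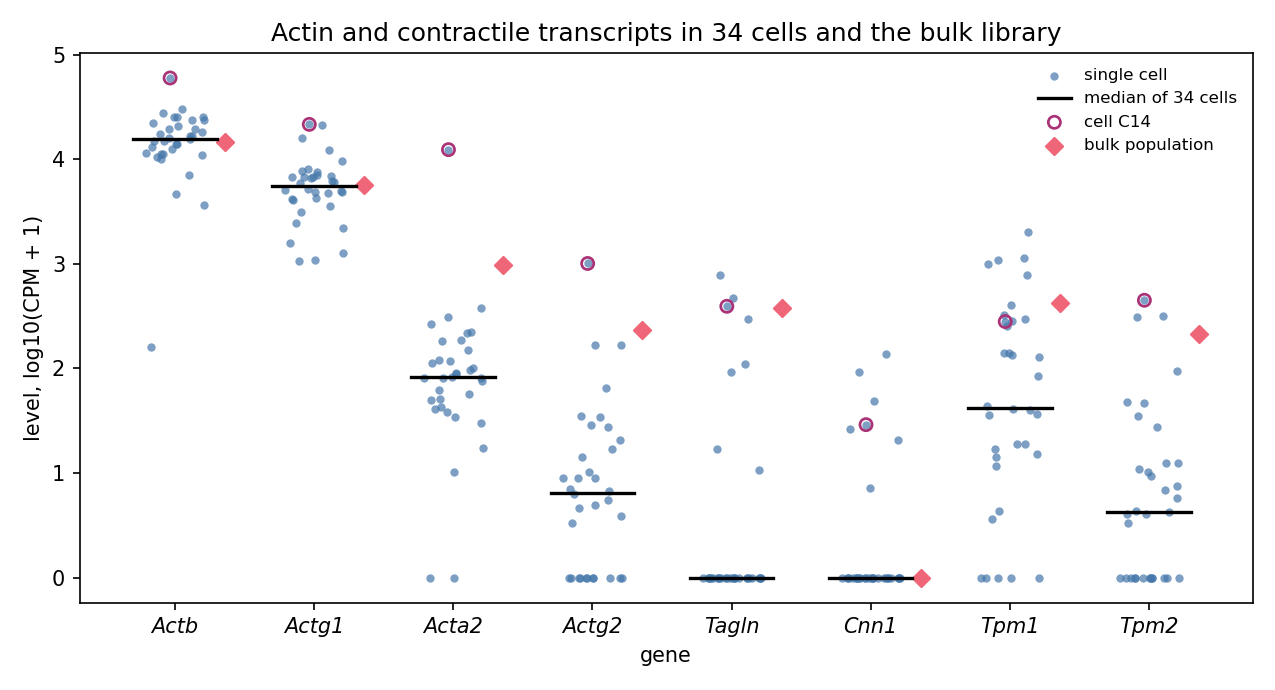
Levels of the 8 genes as log10(CPM + 1), with 1 blue point for each of the 34 cells, a black bar at the median of the cells, a purple ring around cell C14 and a red diamond for the bulk library. The bulk library lies near the median for Actb and Actg1, and above 33 of the 34 cells for Acta2 and Actg2.

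The cytoplasmic actins were detected in all 34 cells and varied least. Actb, the beta-actin gene, ranged from 159 CPM to 60032 CPM in the cells, with a median of 15790, and was 14749 CPM in bulk. The lowest cell was C94, in which it had 1 read, and the highest was C14. The mean was 17354 ± 10297 CPM (SD, 34 cells). Actg1, the gamma-actin gene, ranged from 1055 CPM in C39 to 21608 CPM in C14, with a median of 5540, and was 5624 CPM in bulk. Its mean was 6526 ± 4865 CPM. In both genes the bulk level fell in the middle of the cells, with 20 cells above it for Actb and 17 for Actg1.

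The gene-rich cells, defined by at least 50000 reads and 3000 genes with a read, numbered 22. In these, Actb lay between 10043 and 27690 CPM, a coefficient of variation of 0.325, and Actg1 between 2229 and 15968 CPM, a coefficient of variation of 0.501. The proportion of the isoforms differed between cells. Among the 32 cells with at least 100 Actb reads there were 60.1 to 796 Actg1 reads per 1000 Actb reads, with a median of 345. C39 was the lowest and C40 the highest, and the bulk library lay at 381.

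Acta2, the smooth muscle alpha-actin gene, was low in nearly all cells and high in 1. It was detected in 32 of 34 cells (94.1%, interval 80.3% to 99.3%), and the 2 cells without a read were C88 and C94. Its level ranged from 0 to 12388 CPM with a median of 81.8, and it was 976 CPM in bulk (interval 715 to 1302, 46 reads). The highest cell was C14, with 442 reads, and the next was C46, at 378 CPM. C14 held 78.2% of the summed level. The mean was 466 ± 2108 CPM with C14 and 104 ± 90.03 CPM without it. No cell fell between 378 CPM and the bulk level, so C14 alone lay above the bulk library.

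Actg2, the smooth muscle gamma-actin gene, was detected in 18 of 34 cells (52.9%, interval 35.1% to 70.2%). It ranged from 0 to 1009 CPM with a median of 5.48, and it was 233 CPM in bulk (11 reads, interval 117 to 418). C14 was again the highest cell, with 61.2% of the summed level. C26 followed at 169 CPM and C46 at 168 CPM. The mean was 48.5 ± 174 CPM, and 19.3 ± 40.8 CPM without C14. Its few reads limited detection: at 50 CPM it was detected in 4 cells, and after thinning each cell to 50000 reads in 11 of 30 cells.

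Transgelin and calponin are actin-binding proteins used as markers of contractile smooth muscle. Tagln had a read in 8 cells (23.5%, interval 10.7% to 41.2%). Its levels there were 776 CPM in C13, 471 in C88, 392 in C14, 296 in C96, 110 in C47, 92.0 in C44, 16.1 in C39 and 9.75 in C05. The value of C88 rested on 6 reads. The other 26 cells had no Tagln read, whereas bulk had 18 reads, or 382 CPM. The mean over all cells was 63.6 ± 170 CPM.

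Cnn1 had a read in 7 cells (20.6%, interval 8.70% to 37.9%). The levels were 137 CPM in C25, 91.9 in C13, 47.4 in C23, 28.03 in C14, 25.5 in C74, 19.5 in C05 and 6.13 in C44. Bulk had no Cnn1 read. The floor used for a count of 0, 3 reads, is 63.7 CPM there, and the two-sided exact interval reaches 78.3 CPM. The mean of the cells, 10.5 ± 28.9 CPM, lay under both, so no fold was computed. The cells C05, C13, C14 and C44 held reads of both Tagln and Cnn1, and the same 4 cells were those with a read of all 8 genes. In 3 of them this rested on few reads: C14 had 1 Cnn1 read, C44 had 2 Cnn1 reads, and C05 had 3 Tagln reads and 2 Tpm2 reads.

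**Figure D2:**
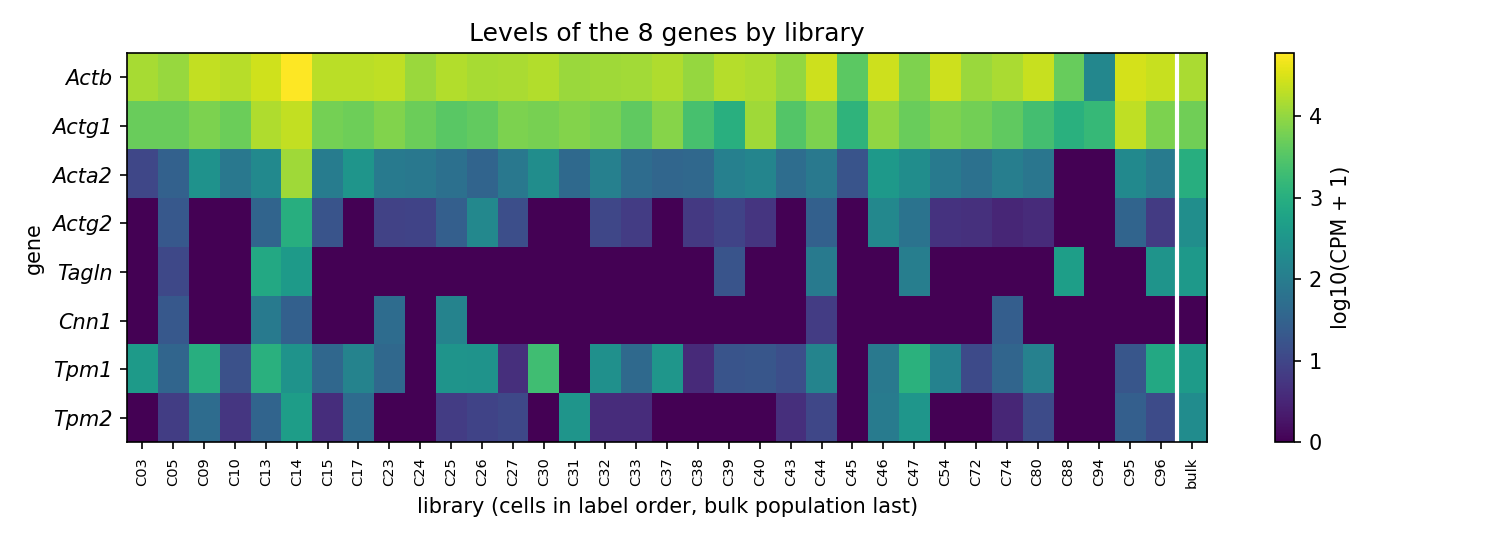
Levels of the 8 genes (rows) in each of the 34 cells in label order and in the bulk library (columns), colored by log10(CPM + 1). Tagln and Cnn1 are dark, at 0, in 26 and 27 of the 34 cells, and C14 is the brightest column for 5 of the 8 genes.

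The tropomyosin genes were uneven between cells. Tpm1 was detected in 27 of 34 cells (79.4%, interval 62.1% to 91.3%) and ranged from 0 to 2016 CPM, with a median of 41.0. It was 424 CPM in bulk (20 reads, interval 259 to 656). The highest cells were C30 (2016 CPM), C47 (1132), C13 (1096), C09 (1005) and C96 (774), and these 5 lay above the bulk library. C14, the highest cell for both smooth muscle actins, was at 280 CPM. The mean was 258 ± 446 CPM, of which C30 held 22.99%.

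Tpm2 was detected in 15 of 34 cells (44.1%, interval 27.2% to 62.1%) and ranged from 0 to 448 CPM with a median of 3.27. Bulk had 10 reads, or 212 CPM (interval 102 to 390). Only C14 (448 CPM), C47 (320) and C31 (313) lay above that level. The mean was 41.5 ± 104 CPM. In C47 both tropomyosin genes were high, while in C30 Tpm1 was at its highest and Tpm2 had no read.

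C14 held the highest level of 5 of the 8 genes: Actb, Actg1, Acta2, Actg2 and Tpm2. The 8 genes took 9.62% of its 35681 reads, against a median of 2.13% over all cells and 2.26% in bulk. Of 10 fibroblast and mesenchymal markers, 6 had a read in C14, among them Col1a2 (68 reads), S100a4 (43) and Col1a1 (36), with a summed level of 4344 CPM, the highest of all cells. The summed level over the 34 cells ranged from 0 to 4344 CPM with a median of 0, and Lum and Thy1 had no read in any cell. Of the 13 other smooth muscle genes measured, 4 had a read in C14: Cald1 (54 reads), Tagln2 (13), Myl9 (12) and Cnn3 (2). Myh11, Des, Smtn, Lmod1 and Myocd had none. Among 6 mural cell markers, Cspg4 had 2 reads in C14 and the other 5 had none. Over all cells Mcam had 25 reads, Abcc9 3 and Cspg4 2, and Rgs5, Notch3 and Kcnj8 had none. Of 5 endothelial markers, Pecam1 was detected in 11 cells and Tek in 3, and Cdh5, Kdr and Emcn had no read in the cells. Of 4 blood markers, Gata1 was detected in 7 cells, Ptprc had 1 read, and Hbb and Hba-a1 had none. The part of these other markers in the level of C14 was not tested.

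The other cells with Col1a2 were also among the higher cells for Acta2, at 378 CPM in C46, 308 in C17 and 220 in C30 (6 reads). The median over all cells was 81.8 CPM, and C14 was at 12388. C09 (267 CPM) and C47 (219), which had no Col1a2 read, lay at similar levels. They were not free of the other markers: C09 had 26 Col1a1 reads, and C47 had 15 S100a4 reads and 22 reads of mural cell markers. The 4 cells with Col1a2 were shallow, with 27284 to 95359 reads. Over the gene-rich cells, which leave out C14 and C30, Acta2 had a rho of -0.44 with total reads. Over all 34 cells it was -0.10. Without the 4 cells with Col1a2 the mean of Acta2 was 84.7 ± 64.0 CPM, that of Actg2 15.7 ± 32.2 CPM and that of Tpm2 27.4 ± 79.2 CPM. Actb and Actg1 stayed at 15609 ± 7225 and 5972 ± 4285 CPM.

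The bulk library served as the control for the single cells. The smooth muscle actins, Tagln and Tpm2 were higher in bulk than in the mean of the cells, and the cytoplasmic actins were slightly lower. The bulk level was 6.01 times the mean of the cells for Tagln (interval 3.56 to 9.49), 5.11 for Tpm2 (2.45 to 9.40), 4.82 for Actg2 (2.41 to 8.62) and 2.10 for Acta2 (1.53 to 2.80). For Tpm1 it was 1.65 (1.01 to 2.54). For Actb it was 0.850 (0.788 to 0.916) and for Actg1 0.862 (0.761 to 0.972). Taken against the median cell, Actg1 turned to 1.02.

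The average of the cells' mean and the bulk level reached 20 CPM for 7 of the 8 genes, and of these 4 were at least 2-fold higher in bulk and 0 at least 2-fold higher in the cells. Over the 5595 genes that passed the same filter, 34.4% were at least 2-fold higher in bulk and 26.7% in the cells. On the log2 scale the median ratio, cells over bulk, was -1.07 for the 7 genes and -0.41 for all 5595, with a bulk count of 0 set to the floor of 3 reads. The ratio of Acta2 rested on C14. Without C14 bulk was 9.35 times the mean of the cells (6.84 to 12.5) for Acta2 and 12.1 times (6.02 to 21.6) for Actg2. Without C88 and C94, or with TMM factors, the ratio of cells to bulk for Acta2 was 0.51 and 0.61 in place of 0.48, short of 2-fold, and the count was 3. Without C13, the highest cell for Tagln, bulk was 9.09 times the mean of the cells for that gene (5.39 to 14.4). Bulk held reads of 4 of the 10 fibroblast and mesenchymal markers, at a summed level of 1761 CPM. Of the 13 other smooth muscle genes it held reads of 5: Tagln2 (50 reads), Cald1 (21), Cnn3 (17), Smtn (9) and Myl9 (8). It held no read of the other 8, among them Myh11, Des, Lmod1 and Myocd, nor of the 6 mural markers. In bulk, more cells with a transcript and more transcript per cell cannot be told apart, and the part of other cell types in the difference was not tested.

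**Figure D3:**
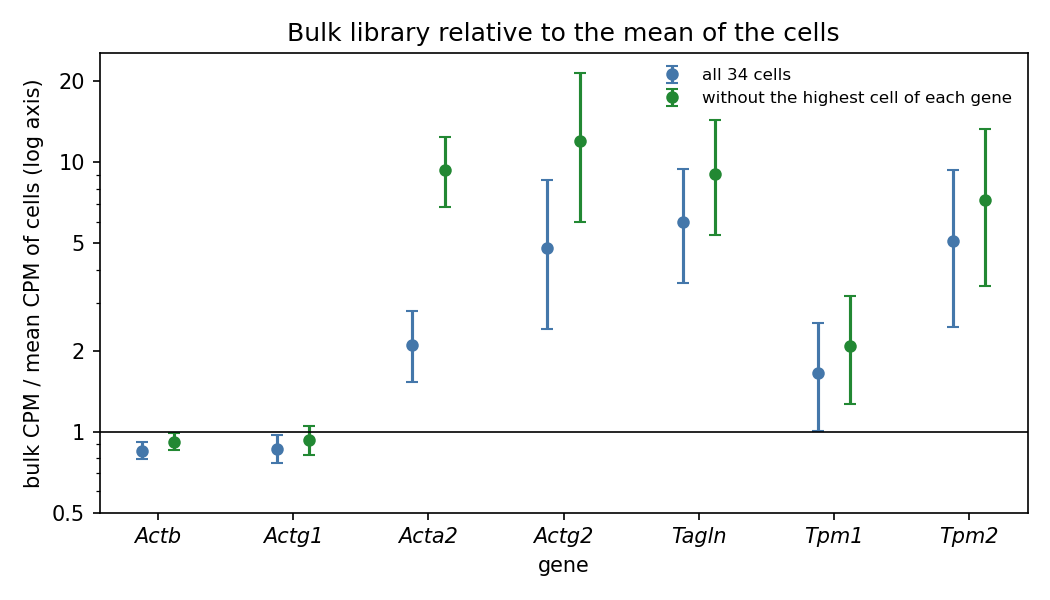
Bulk CPM divided by the mean CPM of the cells on a log axis, for the 7 genes with a bulk read, with all 34 cells (blue) and without the highest cell of each gene (green). Bars are exact Poisson 95% intervals of the bulk reads. Acta2 moves from 2.10 to 9.35, whereas Actb and Actg1 stay near 1.

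Cells carry further actin genes whose coding sequences are close to those above. Acta1, the skeletal muscle alpha-actin gene, was detected in 32 of 34 cells and ranged from 0 to 28755 CPM, with a median of 1055 and a mean of 3442 ± 6105 CPM. It was 2377 CPM in bulk. The highest cells were C95 (28755 CPM), C14 (15919), C13 (14628), C25 (11289), C44 (9698) and C96 (6086). Of these, C13, C14 and C44 held reads of both Tagln and Cnn1, C25 of Cnn1, C96 of Tagln and C95 of neither. The next cells were C46 (5306 CPM), with reads of neither, and C05 (4912 CPM), with reads of both. A link between Acta1 and these genes was not tested. Actc1, the cardiac alpha-actin gene, was detected in 32 cells at 357 ± 802 CPM, with its highest level in C14 (3756 CPM), and was 149 CPM in bulk (7 reads).

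Other striated muscle genes had few reads or none, apart from a pair of troponin genes. Of the 13 genes of that list, 6 (Ckm, Mb, Myl2, Myl7, Tnni3 and Tnnt3) had no read in any cell. The troponin genes Tnnc1 and Tnnt2 were detected in 14 and 13 cells, at 53.4 ± 114 and 25.99 ± 50.4 CPM. Myh6 and Myh7, which encode closely related cardiac myosins, had 2 reads each, and their counts were equal in all 35 libraries. How reads that match more than 1 actin gene were counted is not given in the sources used here, so the split of reads between the actin genes is uncertain.

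The muscle actins were also set against Actb within each cell. Among the 32 cells with at least 100 Actb reads, Acta2 had 0.654 to 206 reads per 1000 Actb reads, with a median of 5.03 and quartiles of 3.63 and 7.93. C14 was the highest and C47, at 30.7, the next, while the bulk library lay at 66.2. Actc1 had a median of 5.53, quartiles of 2.61 and 16.4 and a range of 0.654 to 105, with bulk at 10.1. Acta1 had a median of 85.4, quartiles of 18.8 and 157 and a range of 11.4 to 954, with bulk at 161. The bulk library was thus above 31 of the 32 cells for Acta2, above 24 for Acta1 and above 22 for Actc1. The part of reads shared with Actb in these values was not tested.

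**Figure D4:**
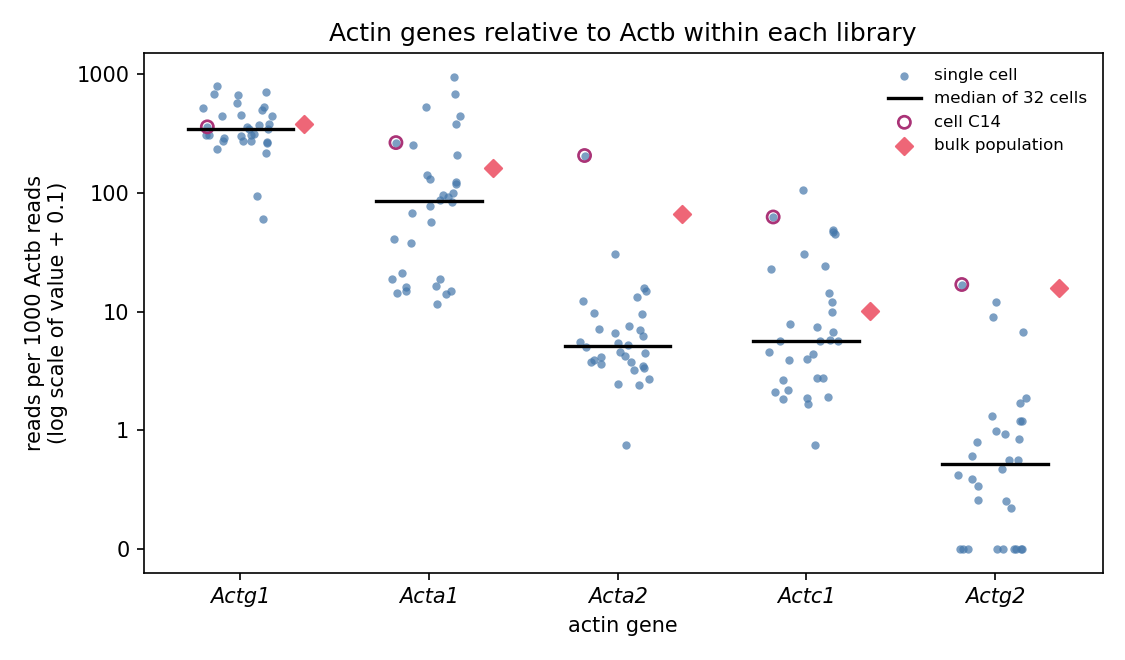
Reads of 5 actin genes per 1000 Actb reads in each of the 32 cells with at least 100 Actb reads (blue), with the median (black bar), C14 (purple ring) and the bulk library (red diamond), on a log scale of the value plus 0.1. For Acta2 the bulk library, at 66.2, lies above every cell but C14, whereas for Actg1 it lies at 381, near the median of 345.

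Of the 8 genes, 5 were detected in at least 17 cells (Actb, Actg1, Acta2, Actg2 and Tpm1), against 17.1% of all 16212 matched symbols and 54.1% of the 5355 symbols and unmatched records with a mean of at least 20 CPM. Spearman's rho between their levels, over the 22 gene-rich cells, is given as a description of cells that share 1 sample and differ in depth. It was 0.65 for Actb and Acta2, 0.64 for Actg1 and Acta2, 0.58 for Actb and Tpm1 and 0.57 for Actb and Actg1. For Acta2 with Tpm1 it was 0.21, and for Acta2 with Actg2 0.09. The median of the 10 pairs was 0.29. The part of shared reads in the values of pairs of actin genes was not tested. Thinned to 50000 reads, Actb and Acta2 gave 0.34 and Acta2 and Actg2 0.40. With total reads, Acta2 had a rho of -0.44 and Actg1 one of -0.55 over the 22 cells, against -0.10 and -0.01 over all 34 cells. The 22 cells include C46 and C17, cells with Col1a2 and the highest of the 22 for Acta2 (378 and 308 CPM). No rho was computed without them.

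The genes with the most similar levels over the 22 gene-rich cells were sought among 2898 symbols and unmatched records detected in at least 17 cells at a mean of at least 20 CPM. For Actb they were Actc1 (rho 0.76), Ep400 (0.74) and Actbl2 (0.66), of which Actc1 and Actbl2 encode actins. For Acta2 they were Pfn1 (0.80), Trappc1 (0.76) and Vps25 (0.75); Pfn1 encodes profilin, which loads actin monomers for filament growth. For Actg1 they were Plekhb2 (0.79), Rad50 (0.79) and Ctnna1 (0.73); Ctnna1 encodes alpha-catenin, which links cadherins to actin. For Tpm1 they were Actc1 (0.71), Scp2 (0.68) and Anxa2 (0.67). Over all 34 cells each of these 12 values was lower, from 0.17 for Tpm1 with Scp2 and 0.29 for Actb with Ep400 to 0.67 for Acta2 with Pfn1. As the highest of 2898 values over 22 cells, the 12 are raised by selection, and no reference level was computed for them. A function is named for only some of these genes. The part of shared reads in the values of Actb with Actc1 and Actbl2 was not tested.

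Further smooth muscle genes split into widely and rarely detected members. Detection in at least 17 cells held for 17.1% of all matched symbols and 54.1% of the symbols and unmatched records averaging 20 CPM or more. Of the 13 further smooth muscle genes measured, it held for 3: Tagln2 (1189 ± 1003 CPM, 30 cells) and Cnn3 (362 ± 457 CPM, 27 cells), which are the widely expressed relatives of Tagln and Cnn1, and Cald1, the caldesmon gene (328 ± 744 CPM, 29 cells). Their bulk levels were 1061, 361 and 446 CPM, each within 2-fold of the mean of the cells. Of the 5 genes that passed the filter of 20 CPM, 2 were at least 2-fold higher in bulk, near the 34.4% of all genes tested. These were Smtn, with 9 bulk reads, and Myl9, with 8. Smtn, at 5.69 CPM in the cells, passed the filter only through bulk, so its call follows from the filter. Both other tropomyosin genes, Tpm3 (453 ± 338 CPM, 30 cells) and Tpm4 (248 ± 246 CPM, 29 cells), were also within 2-fold of bulk, at 531 and 361 CPM.

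Genes that build and turn over filaments were detected in most cells. Of all matched symbols, 17.1% reached 17 cells, as did 54.1% of the symbols and unmatched records averaging 20 CPM or more. Of 26 genes of actin assembly and turnover, 23 did. Those with the highest mean CPM, which is not scaled by length, were Dstn, which encodes the filament-severing protein destrin (1135 ± 1019 CPM), Tmsb4x, which encodes the monomer-binding protein thymosin beta-4 (965 ± 2380 CPM, and 624 CPM without C47), and Twf1, the twinfilin gene (908 ± 1566 CPM). Of 25 that passed the filter, 7 were at least 2-fold higher in the cells and 2, Gsn and Arpc1b, at least 2-fold higher in bulk, against 26.7% and 34.4% of all genes tested. The list's median log2 ratio, cells over bulk, was -0.38, close to the -0.41 of all genes. Dstn, Tmsb4x and Twf1 were among the 7, with bulk levels of 424, 276 and 276 CPM. Also among the 7 were Capg, Diaph1 and Vasp, each with no bulk read. Diaph1 (45.2 CPM) and Vasp (44.2 CPM, and 9.92 without C88) lay under the bulk floor of 63.7 CPM. The bulk depth therefore does not resolve their calls.

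Of 15 genes of crosslinkers and membrane linkers, 10 were at least 2-fold higher in bulk and 2 at least 2-fold higher in the cells, against 34.4% and 26.7% of all genes tested. The median log2 ratio of the 15, cells over bulk, was -1.74. Of the 10, Actn1 (4.76 CPM in the cells, 2 bulk reads) and Lcp1 (no read in the cells, 10 in bulk) passed the filter only through bulk. Their calls therefore follow from the filter. Cttn, the cortactin gene, was 3.55 times as high in bulk (interval 2.76 to 4.50), and Flna, which encodes the crosslinker filamin A, was 3.34 times as high (2.46 to 4.43). Rdx, which encodes the membrane linker radixin, was at 310 ± 322 CPM in the cells and 84.9 CPM in bulk.

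Of 10 measured SRF pathway and target genes, 5 reached 17 cells, near the 54.1% of symbols and unmatched records averaging 20 CPM or more. The share of all matched symbols was 17.1%. Of the 8 SRF genes that passed the filter, 3 were at least 2-fold higher in each direction, near the 34.4% and 26.7% of all genes tested. Those higher in bulk were Ccn2, Fhl2 and Fhl1. Fhl1, at 19.4 CPM in the cells with 9 bulk reads, passed the filter only through bulk. The intervals of bulk over cells for Fhl2 (0.77 to 7.21, 4 bulk reads) and Fos (0.05 to 1.61, 2 bulk reads) left their direction unresolved. Fos was among those called higher in the cells. Ccn1 (736 ± 2976 CPM) drew 70.0% of its summed level from C94 and was at 228 CPM without it. Vcl, the vinculin gene, was at 534 ± 679 CPM and 467 CPM in bulk. Ccn2, a matricellular SRF and YAP target, was 6.86 times as high in bulk (5.53 to 8.41). Srf itself was detected in 13 cells, with 65.7% of its summed level in C47 and a mean of 30.3 CPM without it, and had no bulk read. Srf was among the genes called higher in the cells, but without C47 its mean lay under the bulk floor of 63.7 CPM.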

How the data were processed

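Messenger RNA was measured in 34 single-cell libraries and 1 bulk library. The deposited table holds whole-number read counts per RefSeq transcript record, without normalization. The submitters' processing notes name TopHat2 and the rn5 build. The read counter, the annotation and the treatment of reads that match several genes are not stated there. Of 17201 records, 16215 were matched by accession to a symbol in a RefSeq gene table (GRCr8), and counts were summed per symbol. The other 986 records stayed in the totals. Each of the 8 genes had 1 record.

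Counts were scaled by column totals to CPM. Shares of cells carry exact Clopper-Pearson 95% intervals and bulk reads exact Poisson 95% intervals, with the mean of the cells held fixed. Reads carry no molecular identifiers, so intervals and floors cover counting error only. Even counts made up 59.8% to 72.6% of nonzero counts in the cells and 79.9% in bulk, an excess that makes the Poisson intervals too narrow. With 1 sample a group there was no test. Doublets were not sought, and no cell was removed. Alternatives were TMM factors (edgeR 4.0.16), totals without Rn45s, other sets of cells, pooled reads, the median over cells, other detection thresholds and thinning to 50000 reads. The computation of ratios, calls and correlations was tested on simulated data. The settings and outcome of that test are not given here. No conclusion about the calls of single genes in these libraries is therefore drawn from it. Python 3.11.15, NumPy 2.4.6, pandas 2.3.3 and SciPy 1.17.1 were used.

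The genes and lists were chosen with earlier results of these data known. By rule, all 8 genes were named, with the 3 genes of highest mean CPM of each list and the 3 genes whose levels most resembled those of Actb, Actg1, Acta2 and Tpm1. Genes named outside this rule were chosen after their values were seen. A further list is not reported here and is an exception to this rule. None of the 561 pairs of cells held identical counts. The upstream 250 bases of the promoters were taken from a RefSeq table of build GRCr8.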

Additional observations from a re-analysis of the deposited data

How the results depend on the processing

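Under 50 CPM in place of 5 CPM, the number of cells with detection was 4 for Actg2, 2 for Cnn1, 16 for Tpm1 and 4 for Tpm2. Thinned to 50000 reads, with 4 shallower cells left out, it was 11 for Actg2, 4 for Tagln, 4 for Cnn1 and 8 for Tpm2. Among the 22 gene-rich cells alone it was 22 for Actb, 22 for Actg1 and 4 for Tagln, since fewer cells were counted. The median correlation of the 10 pairs of genes was 0.42 over all 34 cells and 0.40 after thinning, against 0.29. No called ratio of cells to bulk changed sign under any alternative run. The median cell lay below the mean for these 5 genes: Acta2 was 81.8 in place of 466 CPM, Tpm1 41.0 in place of 258, Actg2 5.48 in place of 48.5, Tpm2 3.27 in place of 41.5 and Tagln 0 in place of 63.6. The ratio of Acta2 in cells to bulk was 0.48, and it was 0.11 without C14 and 0.11 in gene-rich cells. The genes at least 2-fold higher in bulk numbered 4 with all cells, 3 with TMM factors and 3 without C88 and C94. They numbered 5, with Tpm1 added, in gene-rich cells, without the cells with Col1a2, with pooled reads and with the median over cells. With that median 75.1% of all genes tested were at least 2-fold higher in bulk, and with the other scalings and sets of cells 30.4% to 35.3%. TMM factors moved the median log2 ratio over all genes from -0.41 to -0.26. With no filter on low levels, 61.1% of genes were at least 2-fold higher in the cells and 18.5% in bulk. Leaving out C14, or C88 and C94, was chosen after the data were seen. No paired analysis was possible because there was 1 bulk library and the cells carry no replicate numbers. The 47121 bulk reads limit every ratio given, and genes with under 20 bulk reads have wide intervals.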
